A study of Mus musculus with 9 samples.

Results

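The transcriptomes compared here came from mouse tumours given Lipo-TriTE and from mouse tumours given Lipo-BiTE, 3 libraries on each side, which are 6 of the 9 libraries of the series; the other 3 came from tumours given phosphate-buffered saline (PBS). The members were taken by the treatment named in the labels. All 9 tumours were grown from MB49, a mouse bladder cancer cell line, carrying an overexpressed HER2, so the PBS tumours carry it too. Age, sex and strain of the mice, dose and day of harvest are not stated in the labels, nor whether each library came from its own animal, so the p-values measure the spread between these libraries. No group given a carrier alone was analysed here, so an effect of the carrier and of the protein cannot be told apart within either group. The labels call the material tumour and describe frozen, homogenised tissue, whereas the design text speaks of CD3-sorted T cells. Transcripts of keratin 8 stood at 266 to 380 CPM (counts per 1000000, with library totals scaled by the TMM method of edgeR) in the Lipo-BiTE libraries and at 159 to 295 CPM in the Lipo-TriTE libraries, and those of Csf1r, a macrophage receptor, at 170 to 637 CPM in both, so the material held transcripts of cells other than T cells.

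A bispecific T cell engager, BiTE for short, is a protein that binds CD3 on a T cell with 1 arm and an antigen on a tumour cell with another, and so brings a T cell of any specificity to the tumour cell; trispecific designs add a further binding site. The labels give neither the binding sites of these agents nor the composition of their carrier. Lymphocytes that collect in a tumour include antigen-experienced effector T cells, regulatory T cells that restrain them, and, where lymphoid aggregates form, naive or memory T cells, B cells, antibody-secreting plasma cells and dendritic cells. In RNA from whole tissue, fewer cells of a type and less RNA per cell cannot be told apart.

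The 6 libraries held 13693601 to 20273548 counts each. Along the leading principal component, which carried 55% of their variance, the Lipo-BiTE libraries lay between -73.6 and -44.5 and the Lipo-TriTE libraries between 58.1 and 65.0. Pairs of libraries within a group differed by far more than sampling noise, and none was a repeat deposit of another.

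Of 16596 genes tested across all 9 libraries with the quasi-likelihood F test of edgeR, 810 (4.88%) were higher and 865 (5.21%) were lower in Lipo-TriTE than in Lipo-BiTE tumours at an adjusted p (Benjamini-Hochberg, over all tested genes) under 0.05; such genes are described as called, or as having risen or fallen. A call of a named gene held in each of the 9 fits that left out a single library unless an exception is given. The rises were large and the falls small. Among the called genes 521 were over 4-fold higher and 30 were over 4-fold lower, and the median called change was 5.94-fold upwards and 1.9-fold downwards. Unnamed, predicted or pseudogene entries made up 228 of the 810 rises and antigen receptor segments 51, against 79 and 0 of the 865 falls. The median level in the higher of the 2 groups was 12.1 CPM for risen and 79.1 CPM for fallen genes. Of the risen genes 320 passed the filter on low counts only through the Lipo-TriTE libraries, so they could enter the test only as high there. The NK cell, regulatory T cell, naive and memory, helper lineage, lymphoid organisation and class II lists each held 1 tested gene passing this way. So did the cytokine and chemokine, hypoxia, macrophage and monocyte, skeletal muscle, adipocyte and skin keratinocyte lists. The epithelial and urothelial list and the keratin and junction list each held 2. Without a model, 2670 genes (16.1%) had all 3 Lipo-TriTE values above all 3 Lipo-BiTE values and 2392 (14.4%) had all 3 below. The median log2 fold change over all tested genes was -0.01; with libraries scaled by total counts it was 0.11, and the calls were then 1099 higher and 451 lower. Leaving out the library Lipo-BiTE 2 left 276 higher and 158 lower, and leaving out Lipo-TriTE 3 left 479 and 293.

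**Figure D1:**
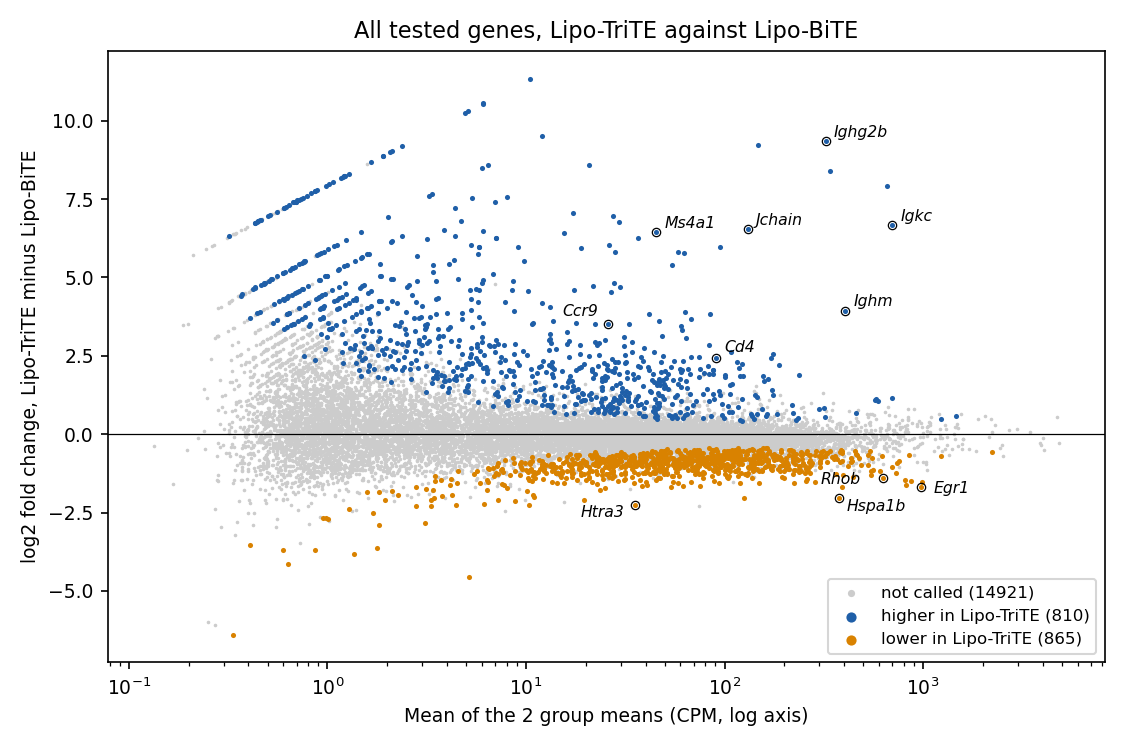
Each point is 1 of the 16596 tested genes, with the mean of the group means (CPM, log axis) against the log2 fold change of Lipo-TriTE over Lipo-BiTE; blue and orange points are genes called higher or lower by edgeR. The rises reach far higher than the falls reach down, and the diagonal bands on the left hold genes with 0 or few counts in 1 group, whose fitted change depends on the prior count and is no measured size.

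The PBS tumours place these differences. For 476 of the 810 risen genes (58.8%) the PBS mean lay below both treated means, and for 329 (40.6%) it lay between them. All 3 Lipo-TriTE values were above all 3 PBS values for 697 of the risen genes, and all 3 Lipo-BiTE values were for 317. Among the 865 fallen genes the PBS mean lay between the treated means for 413 (47.7%) and above both for 397 (45.9%). All 3 Lipo-TriTE values lay below all 3 PBS values for 639 of the fallen genes, whereas the Lipo-BiTE and PBS values overlapped for 570 of them.

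Fallen genes were GC-rich, and 4 promoter windows are printed as examples of called genes with few and with many CG dinucleotides. They belong to the called genes with the smallest p that had a single promoter window in RefSeq (GRCm38.p6, 250 bases before to 50 after the gene's start), 2 of each direction. Genes of 1 chromosome were left out of this choice. Jchain encodes the chain that joins the units of secreted IgM and IgA (chr5:88527848-88528147, minus strand), and Ccr9 a chemokine receptor of plasmacytoid dendritic cells and gut-homing T cells (chr9:123766961-123767260, plus strand); both rose. Rhob encodes a small GTPase of actin and endosome traffic (chr12:8499960-8500259, minus strand), and Parvb an adaptor of integrin adhesions (chr15:84231793-84232092, plus strand); both fell. CG dinucleotides are in capitals, and each window is written 5′ to 3′ on the gene's strand.
Jchain: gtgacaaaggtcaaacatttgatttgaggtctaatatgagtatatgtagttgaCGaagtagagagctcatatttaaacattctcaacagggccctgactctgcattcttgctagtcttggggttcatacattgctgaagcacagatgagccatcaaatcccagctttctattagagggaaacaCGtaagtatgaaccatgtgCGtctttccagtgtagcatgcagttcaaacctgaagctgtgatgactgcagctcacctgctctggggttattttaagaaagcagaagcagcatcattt
Ccr9: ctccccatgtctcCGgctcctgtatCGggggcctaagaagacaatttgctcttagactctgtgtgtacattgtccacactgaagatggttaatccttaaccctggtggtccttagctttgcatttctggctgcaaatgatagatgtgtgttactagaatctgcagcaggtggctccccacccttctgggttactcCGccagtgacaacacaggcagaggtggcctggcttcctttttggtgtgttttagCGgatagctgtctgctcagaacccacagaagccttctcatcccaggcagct
Rhob: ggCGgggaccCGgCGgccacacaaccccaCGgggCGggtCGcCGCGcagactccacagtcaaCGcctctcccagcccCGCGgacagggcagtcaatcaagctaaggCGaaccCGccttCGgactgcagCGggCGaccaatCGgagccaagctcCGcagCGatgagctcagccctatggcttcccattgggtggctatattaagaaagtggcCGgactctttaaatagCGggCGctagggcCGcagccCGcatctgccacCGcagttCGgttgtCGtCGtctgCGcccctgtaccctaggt
Parvb: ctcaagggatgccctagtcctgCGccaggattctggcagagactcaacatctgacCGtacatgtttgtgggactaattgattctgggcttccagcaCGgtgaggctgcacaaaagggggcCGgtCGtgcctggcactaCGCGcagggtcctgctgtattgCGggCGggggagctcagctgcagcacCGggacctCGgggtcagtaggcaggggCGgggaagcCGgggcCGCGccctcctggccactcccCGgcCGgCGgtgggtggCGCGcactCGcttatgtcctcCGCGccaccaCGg
The Jchain and Ccr9 windows hold 3 and 4 CG dinucleotides, and the Rhob and Parvb windows hold 29 and 24. Over the 10391 tested genes with such a window (62.6%), the median was 20 and 99.5% of windows held at least 1. Windows were matched for 50.6% of the risen and 69.8% of the fallen genes, which is too few to compare the promoters of the called sets.

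Transcript composition could be read for more genes. Fallen genes had a median transcript GC content of 55.0%, with values for 90.6% of them, against 49.7% over all tested genes, and a median length of 4843 bases against 3328. From the lowest to the highest of 5 equal groups of genes by GC content, the share called lower went from 1.3% through 2.28%, 4.59% and 6.83% to 13.3%. The share called higher went from 4.63% through 5.68%, 5.35% and 4.19% to 2.28%. By length the share called lower went from 1.66% in the shortest through 3.58%, 6.25% and 7.63% to 9.22% in the longest of 5 equal groups. GC content of risen genes had values for 75.6% of them, so that check is void. Levels of GC-rich against GC-poor genes also differed between libraries of 1 group: the log2 difference between the highest and the lowest of these groups was -0.14, -0.39 and -0.85 in the Lipo-TriTE libraries and between -0.08 and -0.02 in the Lipo-BiTE libraries. In the PBS libraries it was -0.78, -0.23 and -0.28, which overlapped Lipo-TriTE, so the Lipo-BiTE libraries were those that stood apart. The same difference between the longest and the shortest genes was 2.82 to 2.93 in the Lipo-BiTE, 2.34 to 2.62 in the Lipo-TriTE and 3.0 to 3.19 in the PBS libraries, without overlap. With an offset per library that removes the relation to GC content, 966 genes were called higher and 691 lower, and 635 of the 865 fallen genes were still called; the part of GC content in the remaining falls, and that of transcript length in any of them, was not tested.

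**Figure D2:**
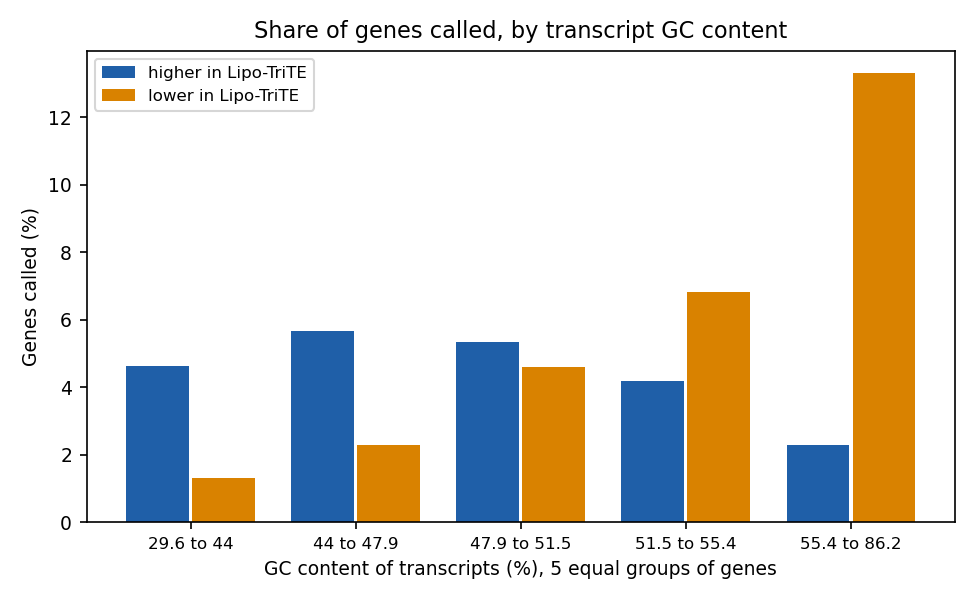
Bars give the share of tested genes called higher (blue) or lower (orange) in Lipo-TriTE, for 5 equal groups of genes by transcript GC content (GRCm38 transcripts). The orange bars climb from 1.3% to 13.3% and the blue bars end at 2.28%.

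Antibody genes and B cell genes showed the largest rises. Of 17 B cell genes tested 16 rose, with a median log2 fold change of 4.70, and of 19 plasma cell genes 13 rose, with a median of 4.52; none of either fell. Of these, 4 B cell and 4 plasma cell genes passed the filter on low counts only through the Lipo-TriTE libraries, which fixes their direction. The summed level of the B cell genes was 32.6 to 34.0 CPM in PBS, 75.8 to 121 CPM in Lipo-BiTE and 1380 to 2970 CPM in Lipo-TriTE libraries, so the 3 groups did not overlap and the wider gap lay between the agents.

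Ms4a1, the B cell surface protein CD20 (chr19:9020807-9039416 of the C57BL/6NJ assembly used for the counts), was at 1.10, 1.5 and 0.436 CPM in Lipo-BiTE 1, 2 and 3 and at 156, 58.2 and 54.0 CPM in Lipo-TriTE 1, 2 and 3. The groups did not overlap, and Lipo-TriTE 1 was the highest library. The rise was 6.45 on the log2 scale (SE 0.58, edgeR adjusted p = 0.00041), or 87.7-fold, and 56.0-fold without Lipo-TriTE 1. Fcer2a, the low-affinity IgE receptor CD23 of mature naive B cells, rose by 6.96 (SE 0.53, edgeR adjusted p = 0.00014); its 3 Lipo-BiTE values were 0.868, 0.301 and 0.145 CPM and its Lipo-TriTE values 85.7, 39.9 and 38.4 CPM. Fcer2a rose 125-fold, and 234-fold without Lipo-BiTE 1. Cr2, complement receptor 2 of B cells and follicular dendritic cells, rose 65.2-fold, and 41.7-fold without Lipo-TriTE 1. Signalling genes of the B cell receptor moved with them: 9 of 19 rose, among them Cd79a (5.77 on the log2 scale), Blnk (2.57, or 5.92-fold, and 3.94-fold without Lipo-TriTE 1) and Blk (5.93).

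Ighm, the constant region of the IgM heavy chain (chr12:119469403-119473561, C57BL/6NJ), stood at 55.8, 47.8 and 45.0 CPM in the Lipo-BiTE libraries and at 1006, 647 and 629 CPM in the Lipo-TriTE libraries. The groups did not overlap, and the rise of 3.94 (SE 0.23, edgeR adjusted p = 4.7e-05) held in each of the 9 omissions of a library. Jchain was at 3.47, 2.71 and 2.18 CPM against 415, 162 and 199 CPM, a rise of 6.54 (SE 0.42, edgeR adjusted p = 8.1e-05). PBS libraries had 1.53 to 2.67 CPM of Jchain, a range that overlaps that of Lipo-BiTE.

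The fold changes of Igkc, Ighg2b and Ighg1 were larger than that of Ighm. Igkc, the constant region of the kappa light chain, was at 15.2, 12.8 and 12.7 CPM in Lipo-BiTE and at 2534, 671 and 938 CPM in Lipo-TriTE libraries, 102-fold higher and 60.6-fold higher without Lipo-TriTE 1. Ighg2b was at 0.631, 1.05 and 1.24 CPM against 1432, 241 and 261 CPM, 653-fold higher, and 258-fold without Lipo-TriTE 1. Ighg1 was at 3.16, 10.2 and 2.84 CPM against 2445, 720 and 762 CPM; its 243-fold rise was 140-fold without Lipo-TriTE 1 and 431-fold without Lipo-BiTE 2. Within these constant regions reads can be shared between near-identical copies, so the split over IgG classes is uncertain. Igha, of mucosal IgA, rose 14.4-fold (edgeR adjusted p = 0.015) and lost its call without Lipo-BiTE 2 (edgeR adjusted p = 0.07).

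Immunoglobulin genes took 0.0093%, 0.00923% and 0.00788% of all counts in Lipo-BiTE 1, 2 and 3, and 1.14%, 0.322% and 0.377% in Lipo-TriTE 1, 2 and 3. Wilson 95% intervals, which cover counting error only, were 0.00742% to 0.00981% over the Lipo-BiTE and 0.319% to 1.14% over the Lipo-TriTE libraries, so the groups lay far apart and Lipo-TriTE 1 stood above the other two. The make-up differed as well. Ighm gave 64.3% to 73.8% of heavy-chain constant counts in the Lipo-BiTE libraries and 13.1% to 29.8% in the Lipo-TriTE libraries, where Ighg1 gave 31.9% to 33.4%. Igha gave 1.03% in Lipo-TriTE 1 but 8.91% and 8.77% in Lipo-TriTE 2 and 3. Variable segments spread out too: of 77 heavy-chain segments in the table, 18, 13 and 6 had a count in the Lipo-BiTE libraries and 45, 40 and 46 in the Lipo-TriTE libraries. The 22 kappa and 16 heavy-chain segments that passed the filter on low counts passed it only through the Lipo-TriTE libraries, so that their direction was fixed by the filter. The Lipo-TriTE libraries were also sequenced deeper, at 15037557 to 20273548 counts against 13693601 to 14594367, and the part of depth in these segment counts was not tested.

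The secretory genes of plasma cells did not all follow the antibody genes. Mzb1, a chaperone of B cells and plasma cells, rose by 7.06 (SE 0.76, edgeR adjusted p = 0.0011). Prdm1, the regulator that drives plasma cell differentiation and is also used by effector T cells, was at 9.53 to 19.7 CPM in Lipo-BiTE and 11.6 to 18.2 CPM in Lipo-TriTE libraries, a difference of -0.01 (95% interval -0.72 to 0.70). Xbp1 and Sdc1, which many non-lymphoid cells express, were at 321 to 1066 against 348 to 458 CPM and at 130 to 176 against 91.5 to 123 CPM. Neither was called. Of 8 germinal centre genes 4 rose, among them Gcsam (2.29) and Eaf2 (4.75, or 27.0-fold, and 41.5-fold without Lipo-BiTE 1). Of the 8 genes 2 passed the filter on low counts only through the Lipo-TriTE libraries, which fixes their direction. Basp1 (-1.19) and S1pr2 (-0.71) fell, and S1pr2 lost its call without Lipo-BiTE 2 (edgeR adjusted p = 0.083) or Lipo-TriTE 3 (0.059).

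**Figure D3:**
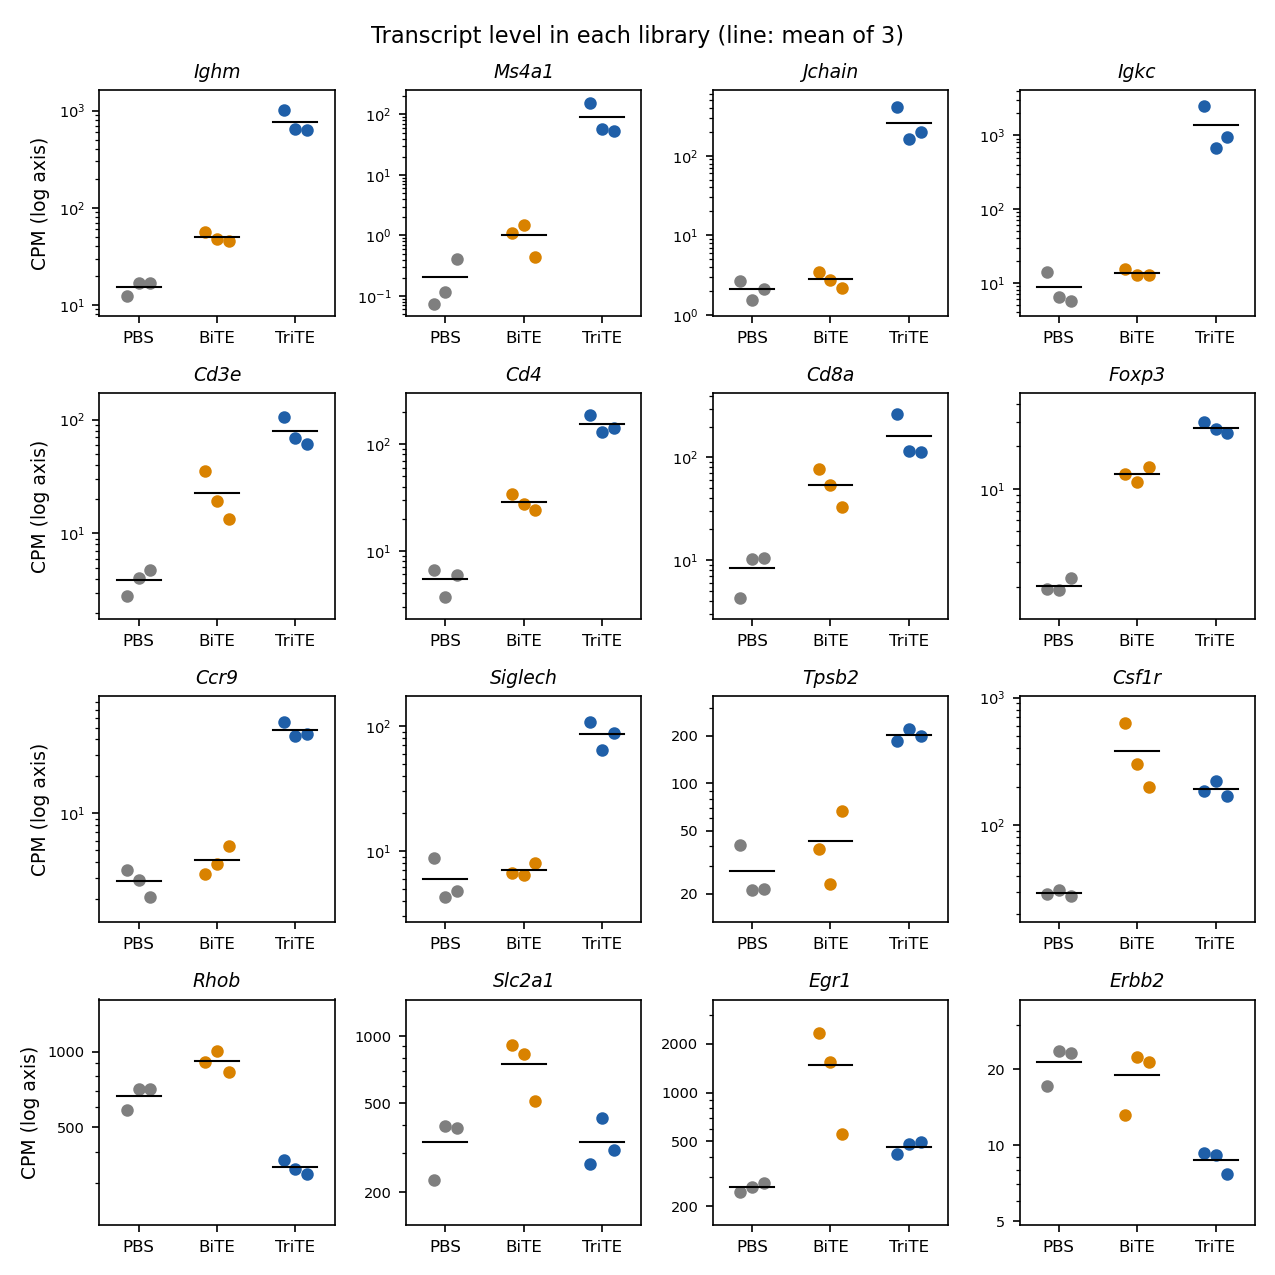
Points give the CPM (log axis, a separate scale for each gene) of 16 genes in every library of PBS (grey), Lipo-BiTE (orange) and Lipo-TriTE (blue), with a line at each mean of 3. Ms4a1, Jchain, Igkc, Ccr9 and Siglech sit far higher in Lipo-TriTE than in either other group, whereas Cd3e, Cd4, Cd8a and Foxp3 are intermediate in Lipo-BiTE, and Rhob and Erbb2 in Lipo-TriTE lie below every PBS value.

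T cell genes stood above the PBS level in Lipo-BiTE tumours and higher again in Lipo-TriTE tumours. Of 22 T cell genes 20 rose between the agents, none fell, and the median log2 fold change was 1.96. Both CD4 and CD8 coreceptors took part. Their summed level was 94.6 to 125 CPM in PBS, 455 to 904 CPM in Lipo-BiTE and 1940 to 3460 CPM in Lipo-TriTE libraries, and without Lipo-BiTE 2 the number called was 14.

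Cd4 (chr6:131555640-131579161, C57BL/6NJ), the coreceptor of helper and regulatory T cells, was at 34.4, 27.5 and 24.3 CPM in Lipo-BiTE and at 186, 130.5 and 143 CPM in Lipo-TriTE libraries. All 3 PBS values, 6.68, 3.66 and 5.88 CPM, were lower still, and the rise between the agents was 2.42 (SE 0.23, edgeR adjusted p = 0.00041). Cd3e, a signalling chain of the T cell receptor, was at 35.4, 19.3 and 13.2 CPM against 106, 69.4 and 61.2 CPM, a rise of 1.80 (SE 0.35, edgeR adjusted p = 0.013) that missed the threshold without Lipo-BiTE 2 (edgeR adjusted p = 0.069). Trbc2 and Cd247, a constant region and a signalling chain of the same receptor, rose by 2.46 and 2.33 and kept their calls in each of the 9 omissions of a library. Cd8a, of cytotoxic T cells, was at 76.3, 53.4 and 32.7 CPM against 263, 114 and 113 CPM. Its rise of 1.59 (SE 0.43, edgeR adjusted p = 0.043) was lost without any of 6 libraries, with edgeR adjusted p up to 0.14 (without Lipo-BiTE 2), and with the GC offset (0.063). Cd8b1, the partner chain of Cd8a, rose by 2.17 (SE 0.37, edgeR adjusted p = 0.0085) and kept its call in all 9 omissions. Receptor signalling followed with 8 of 16 genes risen, among them Lat (2.04), Prkcq (2.16) and Lck (1.85), and 4 of 16 without Lipo-BiTE 2.

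Genes of resting, recirculating lymphocytes rose as well. Of 16 naive and memory genes 13 rose and 1, the cytoskeletal gene Actn1, fell (-0.54), with a median of 2.41. The fall of Actn1 was lost in 7 omissions, with edgeR adjusted p up to 0.15 (without Lipo-BiTE 2). S1pr1, the receptor by which lymphocytes leave lymphoid tissue, was at 12.6, 11.0 and 6.69 CPM in Lipo-BiTE and at 130.1, 105 and 99.3 CPM in Lipo-TriTE libraries, a rise of 3.46 (SE 0.23, edgeR adjusted p = 8.1e-05). Lef1, a transcription factor of naive T cells, rose by 3.11 (SE 0.25, edgeR adjusted p = 0.00015), and Ccr7, which guides naive T cells and dendritic cells to lymphoid tissue, by 3.06. Dapl1, abundant in naive CD8 T cells, went from 0.150 to 0.218 CPM to 9.58 to 14.1 CPM and rose by 5.96. Its Lipo-BiTE values lay at or under the floor of 3 counts (0.218 to 0.237 CPM in those libraries), so the size of this rise is uncertain. Tcf7, of naive and stem-like T cells, rose by 2.30, and Il7r, the interleukin-7 receptor, by 1.91. B cells and other lymphocytes also use several of these genes. Klf2, which maintains S1pr1 in T cells and is strong in endothelium, was at 178 to 360 CPM in Lipo-BiTE and 126 to 234 CPM in Lipo-TriTE libraries and was not called (-0.62, 95% interval -1.27 to 0.03). All 8 GIMAP genes, GTPases of lymphocyte survival, rose, with a median of 1.97; without Lipo-BiTE 2 the number was 4.

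Genes of cytotoxic effector function moved less. Of 20 such genes 4 rose and none fell, with a median of 0.57, and without Lipo-BiTE 2 only Gzma stayed called; without Lipo-BiTE 3, Lipo-TriTE 1 or Lipo-TriTE 3 the number was 2. Gzma, a granzyme of T and NK cells, was at 42.9, 35.0 and 24.8 CPM in Lipo-BiTE and at 182, 104 and 135 CPM in Lipo-TriTE libraries, a rise of 2.04 (SE 0.26, edgeR adjusted p = 0.0021). Gzmb, the granzyme that triggers apoptosis, was at 85.2, 93.6 and 41.0 CPM against 193, 106 and 135 CPM and was not called (0.98, 95% interval 0.29 to 1.68, edgeR adjusted p = 0.072). Prf1, perforin, was at 75.1, 61.5 and 40.9 CPM against 105, 67.0 and 64.3 CPM, with overlapping groups (0.41, 95% interval -0.12 to 0.95). Ifng, interferon gamma, was at 14.9, 12.3 and 7.78 CPM against 21.2, 8.06 and 14.5 CPM (0.32, 95% interval -0.45 to 1.10). For Ifng the groups overlapped as well.

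Costimulation genes rose in part, 9 of 17, with 4 of 17 without Lipo-BiTE 2 and 5 of 17 without Lipo-TriTE 3. Cd40lg, the helper T cell ligand that licenses B cells and dendritic cells, rose by 2.82 (SE 0.36, edgeR adjusted p = 0.0021), Cd27 by 2.52 and Icos by 1.91, each in all 9 omissions. Of 15 exhaustion and checkpoint genes 4 rose and 1, the nuclear receptor gene Nr4a2, fell (-0.86, lost in 6 omissions, with edgeR adjusted p up to 0.16 without Lipo-BiTE 2). Btla, carried by B cells and naive T cells, was at 14.6, 11.8 and 6.84 CPM against 168, 80.0 and 85.9 CPM and rose by 3.33 (SE 0.38, edgeR adjusted p = 0.0015). Pdcd1, the receptor PD-1, was at 11.8, 16.5 and 5.89 CPM against 23.6, 18.4 and 16.1 CPM and was not called (0.76, 95% interval -0.23 to 1.76). Lag3 (0.79), Tigit (0.90) and Havcr2 (-0.31) were not called either. Without Lipo-BiTE 2, 1 gene of this group was still called, Btla. Helper lineage genes gave 4 of 12 risen, among them Ccr6 (3.41, 10.6-fold), a chemokine receptor of Th17 and B cells. Without Lipo-BiTE 2 the number risen was 1, and without Lipo-BiTE 3, Lipo-TriTE 1 or Lipo-TriTE 3 it was 2. Ccr6 was 6.34-fold higher and not called without Lipo-TriTE 1 (edgeR adjusted p = 0.071), nor was it called without Lipo-BiTE 2 (0.062).

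Foxp3, the transcription factor of regulatory T cells, was at 12.8, 11.1 and 14.4 CPM in Lipo-BiTE and at 29.8, 26.5 and 24.9 CPM in Lipo-TriTE libraries. The groups did not overlap, PBS values were 1.89 to 2.32 CPM, and the rise was 1.08 (SE 0.19, edgeR adjusted p = 0.0084), lost without Lipo-BiTE 2 (edgeR adjusted p = 0.057). Ctla4, an inhibitory receptor of the same cells, rose by 1.12 and was lost in the same omission (edgeR adjusted p = 0.06). Gpr83, a receptor enriched in regulatory T cells, rose; its summed counts were 3 in the Lipo-BiTE and 191 in the Lipo-TriTE libraries, a depth-scaled ratio of 48.8 with a 95% counting interval of 16.5 to 239. Without Lipo-BiTE 1 its fitted fold change was 79.5, against 43.1 with all libraries. In all, 7 of 14 regulatory T cell genes rose and none fell, and 2 of 14 without Lipo-BiTE 2.

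To set genes against the level of T cell receptor transcripts, 11 were divided by the summed CPM of Cd3d, Cd3e, Cd3g and Cd247 in the same library, and Cd4 was divided by Cd8a. The CD3 sum was 112, 84.5 and 57.7 CPM in Lipo-BiTE and 482, 288 and 334 CPM in Lipo-TriTE libraries. The divisor thus separates the groups by itself. A gene that rose less than this sum has a lower ratio without any fall in its own level, as Foxp3 does. With 3 libraries against 3 the smallest exact permutation p is 0.1 (0.133 adjusted over 12 ratios), so the ratios are descriptions. Prf1 per CD3 was 0.673, 0.728 and 0.710 in Lipo-BiTE and 0.218, 0.233 and 0.193 in Lipo-TriTE libraries, 3.29-fold lower. Ifng per CD3 was 0.134, 0.146 and 0.135 against 0.0439, 0.0280 and 0.0435, 3.67-fold lower. The Lipo-BiTE values of both were near those of PBS, which were 0.469 to 0.659 for Prf1 and 0.115 to 0.152 for Ifng. Gzmb (2.16-fold), Pdcd1 (2.41-fold), Foxp3 (2.07-fold) and the NK cell receptor gene Ncr1 (2.66-fold) per CD3 were also lower without overlap. Csf1r per CD3 was 7.73-fold lower and Krt8 per CD3 6.03-fold lower, while Ms4a1 per CD3 was 19.9-fold higher. Tcf7 per CD3 overlapped (exact permutation p = 0.7). Cd4:Cd8a was 0.451, 0.514 and 0.744 against 0.709, 1.14 and 1.26 and overlapped by a single library (exact permutation p = 0.2).

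**Figure D4:**
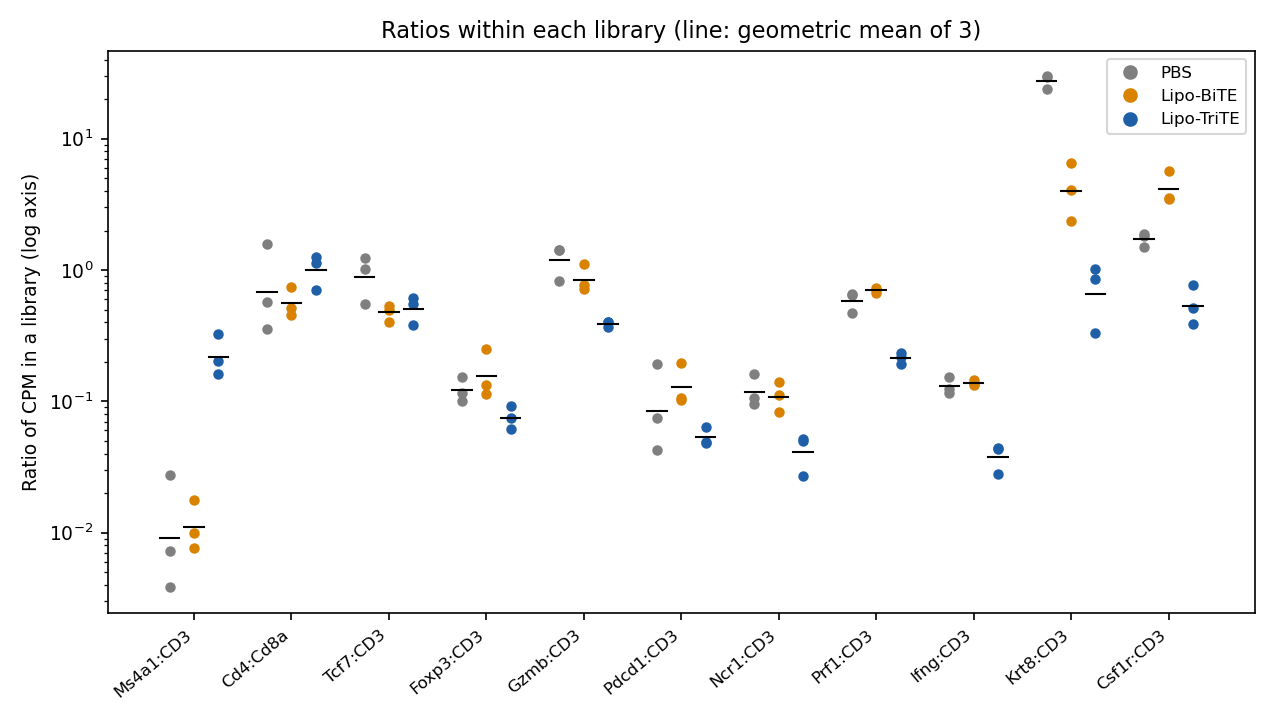
Each point is the ratio of CPM values in 1 library (log axis), with a line at the geometric mean of 3; CD3 is the sum of Cd3d, Cd3e, Cd3g and Cd247. Prf1 and Ifng per CD3 lie at about the PBS level in Lipo-BiTE and 3.29-fold and 3.67-fold lower in Lipo-TriTE, and Ms4a1 per CD3 lies 19.9-fold higher.

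Dendritic cell genes rose, those of plasmacytoid cells most. Of 10 plasmacytoid dendritic cell genes 7 rose, with a median of 3.50, and of 13 conventional dendritic cell genes 8 rose, with a median of 1.5; none of either fell, and 3 of the plasmacytoid genes passed the filter on low counts only through the Lipo-TriTE libraries. Siglech, a lectin of mouse plasmacytoid cells, was at 6.71, 6.39 and 8.07 CPM in Lipo-BiTE and at 108, 64.2 and 87.6 CPM in Lipo-TriTE libraries, while PBS had 4.31 to 8.83 CPM. The rise was 3.61 (SE 0.30, edgeR adjusted p = 0.00016). Ccr9 was at 3.24, 3.84 and 5.38 CPM against 55.9, 42.5 and 44.6 CPM, a rise of 3.52 (SE 0.26, edgeR adjusted p = 0.00013). Cox6a2, whose product is a respiratory subunit found in plasmacytoid cells and muscle, rose by 3.48, and Ly6d, shared with B cells, by 4.74. Neither Bst2, Tcf4 nor Runx2, which other cells also express, was called.

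Flt3, the receptor of dendritic cell precursors, was at 7.73, 6.84 and 6.11 CPM in Lipo-BiTE and at 41.6, 38.8 and 38.8 CPM in Lipo-TriTE libraries, a rise of 2.53 (SE 0.20, edgeR adjusted p = 0.00014). Xcr1 and Clec9a, receptors of cross-presenting dendritic cells, rose by 1.72 and 1.5. Their levels went from 6.84 to 8.29 CPM to 20.2 to 28.8 CPM for Xcr1, and from 6.91 to 9.08 CPM to 18.7 to 26.1 CPM for Clec9a. Ccl22, a chemokine of mature dendritic cells, rose by 2.06. Batf3, a transcription factor of the same lineage, was at 5.67 to 12.5 against 6.31 to 8.88 CPM and was not called. Class II presentation genes rose in 5 of 10 cases, and in 3 without any 1 of Lipo-BiTE 2 and 3 and the Lipo-TriTE libraries: H2-Ob by 3.89, H2-Oa by 2.99 and H2-Eb2 by 4.57 (23.8-fold, and 50.9-fold without Lipo-BiTE 1). H2-Oa and H2-Ob encode a regulator of peptide loading that B cells express. H2-Aa, a chain of the presenting molecule itself, was at 550, 285 and 248 CPM against 972, 708 and 697 CPM; its call (1.13, edgeR adjusted p = 0.036) was lost in 5 of the 9 omissions, with edgeR adjusted p up to 0.14 (without Lipo-BiTE 2). Cd74, the invariant chain, was not called (0.65, 95% interval -0.10 to 1.41).

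Mast cell and basophil genes, taken as 1 list, rose in 7 of 11 cases, with a median of 2.24. Tpsb2, a tryptase of mast cell granules, was at 38.7, 23.1 and 67.0 CPM in Lipo-BiTE and at 186, 222 and 201 CPM in Lipo-TriTE libraries, a rise of 2.24 (SE 0.37, edgeR adjusted p = 0.0074). Cpa3, the granule carboxypeptidase, was at 20.9, 21.9 and 47.3 CPM against 157, 176 and 220.1 CPM; its rise of 2.62 was lost without Lipo-BiTE 2 (edgeR adjusted p = 0.058). Ms4a2, a chain of the high-affinity IgE receptor, rose by 2.64 in all 9 omissions. Without Lipo-BiTE 2 the number of called genes in this list was 3, and without Lipo-TriTE 3 it was 4.

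Of 10 NK cell genes 3 rose, Gzma, Klrk1 and Klrb1c, and of these Gzma kept its call in every omission. Klrk1 (0.99) lost it in 6, with edgeR adjusted p up to 0.15 (without Lipo-BiTE 2), and Klrb1c (1.42) in 3, with edgeR adjusted p up to 0.09 (without Lipo-BiTE 2). Ncr1, the receptor NKp46, was at 6.99 to 12.4 CPM in Lipo-BiTE and 12.9 to 16.6 CPM in Lipo-TriTE libraries and was not called (0.69, 95% interval 0.07 to 1.31). Among 6 gamma delta T cell genes 4 rose: Cd163l1 by 3.54, Blk by 5.93, Trdc by 2.57 and Il17a by 2.99. Blk is a kinase of B cells too. Cd163l1, a scavenger receptor of interleukin-17-making gamma delta T cells, was at 4.10, 2.11 and 2.33 CPM against 33.2, 38.8 and 27.1 CPM, and PBS, at 4.78 to 7.65 CPM, lay above Lipo-BiTE. Trdc lost its call without Lipo-BiTE 2 (edgeR adjusted p = 0.066), and Il17a lost it without Lipo-BiTE 2 (0.1), Lipo-BiTE 3 (0.051) or Lipo-TriTE 3 (0.097) and was 4.90-fold higher, in place of 7.96-fold, in the last case.

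Lymphoid aggregates are organised by chemokines and by specialised vessels and stroma. Of 14 genes of lymphoid organisation 6 rose, among them Cxcr5 (3.20), the follicular homing receptor of B cells, and 1 fell: Ltbr, the lymphotoxin beta receptor of stromal cells, at 64.9, 53.4 and 52.0 CPM in Lipo-BiTE and 30.0, 24.8 and 18.5 CPM in Lipo-TriTE libraries (-1.22, SE 0.21, edgeR adjusted p = 0.0076). Without Lipo-BiTE 2 the rises were 3. Cxcr5 was 9.20-fold higher, 15.7-fold without Lipo-BiTE 1, and lost its call without Lipo-BiTE 2 (edgeR adjusted p = 0.057). Cxcl13, the follicular chemokine, was at 0 to 0.0789 CPM in Lipo-BiTE and at 0.291, 0.762 and 0.972 CPM in Lipo-TriTE libraries, too low to test. Of 5 markers of high endothelial venules, the entry vessels of lymph nodes, none was called by edgeR (0 higher and 1 lower at an unadjusted p under 0.05, 0 by DESeq2), and their summed level was 197 to 221 CPM in PBS, 182 to 200 CPM in Lipo-BiTE and 113 to 169 CPM in Lipo-TriTE libraries. Glycam1, Chst4 and Madcam1, which define them, were at 0 to 0.237 CPM in all 9 libraries. Of 9 genes of lymphoid stroma and follicular dendritic cells 2 rose, Cr2, which B cells share, and Fcamr, and 2 fell, Ltbr and Sox9 (-1.16, lost without Lipo-BiTE 2, edgeR adjusted p = 0.069, or Lipo-TriTE 3, 0.052). Of the 9 genes 3 passed the filter on low counts only through the Lipo-TriTE libraries, which fixes their direction. Fcamr, a receptor for IgM and IgA, had no count in any Lipo-BiTE library and 2.43, 1.33 and 2.14 CPM in Lipo-TriTE libraries, at least 26.6-fold higher against a floor of 3 counts over the group, and lost its call without Lipo-BiTE 2 (edgeR adjusted p = 0.052) or Lipo-TriTE 3 (0.054). Their part in the rise of B cell and naive T cell genes was not tested.

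Macrophage and neutrophil genes gave a single call. Of 14 macrophage and monocyte genes edgeR called none (0 higher and 3 lower at an unadjusted p under 0.05; DESeq2 called 2 lower), and their median was -0.55. Csf1r was at 637, 301 and 199 CPM in Lipo-BiTE and at 186, 222 and 170.3 CPM in Lipo-TriTE libraries, against 27.7 to 30.9 CPM in PBS (-0.97, 95% interval -1.73 to -0.22, edgeR adjusted p = 0.097). Lipo-BiTE 1 was the highest library, and the groups overlapped. The neutrophil genes gave 1 call in 14, the antimicrobial peptide gene Camp (2.89, SE 0.39, edgeR adjusted p = 0.0026), at 1.38 to 2.60 CPM against 11.4 to 22.5 CPM. Csf3r, the main neutrophil growth factor receptor, was at 1758, 859 and 304 CPM against 357, 641 and 566 CPM (-0.90, 95% interval -2.12 to 0.32). Nos2, the inducible nitric oxide synthase, was at 166, 176 and 26.7 CPM against 11.1, 35.8 and 29.5 CPM (-2.28, 95% interval -3.87 to -0.68, edgeR adjusted p = 0.073), and Lipo-BiTE 3 lay within the Lipo-TriTE range. Complement (0 of 11 by edgeR, 0 higher and 2 lower at an unadjusted p under 0.05, 1 lower by DESeq2) gave a median of -0.62.

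Inflammatory genes were called about as seldom as tested genes at large, of which 4.88% were higher and 5.21% lower. Of 21 cytokine and chemokine genes (4.76% higher and 9.52% lower) Il12b rose (1.69, lost in 5 omissions, with edgeR adjusted p up to 0.1 without Lipo-TriTE 3) and Ccl2 and Cxcl1 fell. Ccl2, the monocyte chemokine, was at 131, 119 and 126 CPM in Lipo-BiTE and at 38.3, 62.6 and 71.0 CPM in Lipo-TriTE libraries (-1.13, SE 0.20, edgeR adjusted p = 0.0086), with PBS at 64.9 to 74.2 CPM. Cxcl1, the neutrophil chemokine, fell by 1.36 on the log2 scale, a call lost without Lipo-BiTE 2 (edgeR adjusted p = 0.056). Interferon gamma response genes gave 1 rise, Irf8 (0.83), and 1 fall, Cxcl10 (-1.23), in 18 (5.56% each way), with a median of 0.04. Both calls were lost without Lipo-BiTE 2 (edgeR adjusted p = 0.12 and 0.098), without Lipo-TriTE 1 (0.069 and 0.057) and without others. Type I interferon response genes gave no call by edgeR in 20 (0 higher and 1 lower at an unadjusted p under 0.05, 1 lower by DESeq2), with the same median. Cd274, the checkpoint ligand PD-L1, was at 453, 505 and 113 CPM against 122, 165 and 207 CPM and was not called (-1.12, 95% interval -2.10 to -0.14).

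**Figure D5:**
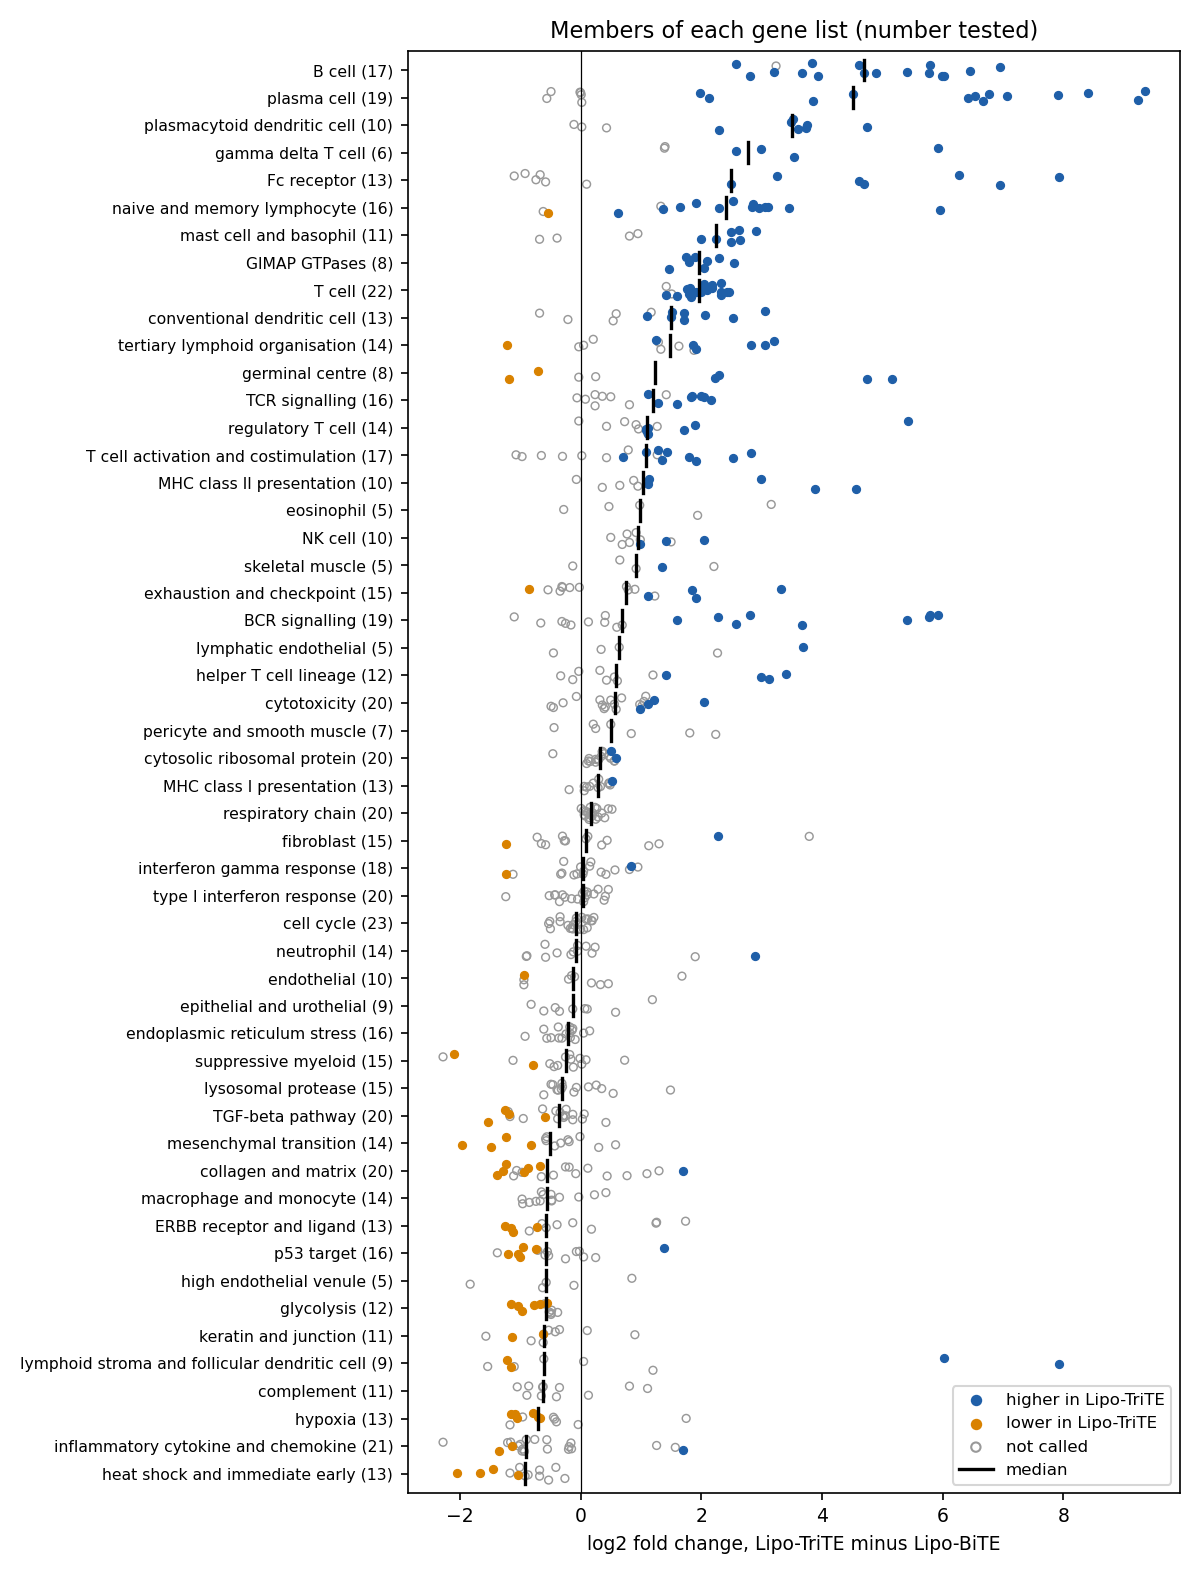
Each point is a tested member of the list named on the left (number tested in brackets), placed by its log2 fold change; filled blue and orange points were called by edgeR, open points were not, and bars mark the medians. B cell, plasma cell and plasmacytoid dendritic cell lists have medians of 4.70, 4.52 and 3.50, and the heat shock and immediate early list has one of -0.92.

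Among the genes of the lists and those named, falls were found for genes of adhesion, matrix, growth factor ligands, glucose use and stress. These genes are only a part of the 865 fallen genes, so the themes do not describe all of them. The median over all called falls was 1.9-fold. The 5 called falls with the smallest p, chosen after their values were seen, held in all 9 omissions: Rhob, Myo1d, Phlda1, Parvb and Zfp703. Rhob was at 908, 1012 and 832 CPM in Lipo-BiTE and at 371, 342 and 325 CPM in Lipo-TriTE libraries, with PBS between them at 588 to 710 CPM; it fell by 1.41 on the log2 scale (SE 0.14, edgeR adjusted p = 0.0006). Myo1d, an unconventional myosin, fell by 1.08, and Phlda1, a gene induced by growth factor signalling, by 1.48. Parvb was at 90.1, 108 and 112 CPM against 46.2, 41.8 and 43.9 CPM, and its Lipo-BiTE values were in the PBS range of 87.4 to 124 CPM. Zfp703, a transcriptional repressor of epithelial tumours, fell by 1.66. Larger falls were seen for Htra3, a secreted serine protease, at 97.9, 47.5 and 30.3 CPM against 12.8, 14 and 9.91 CPM (-2.26, SE 0.40, edgeR adjusted p = 0.0093), and for Ace, the angiotensin-converting enzyme, at 314, 198 and 93.5 CPM against 60.7, 46.4 and 39.6 CPM (-2.04). For both, Lipo-BiTE 1 was the highest library, and both calls held in all 9 omissions.

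Of 20 collagen and matrix genes 6 fell and 1, Col5a2, rose (1.70); without Lipo-TriTE 2 or Lipo-TriTE 3 the falls were 3, and without Lipo-BiTE 2 they were 2 and Col5a2 was not called (edgeR adjusted p = 0.083), nor was it without Lipo-BiTE 3 (0.054) or Lipo-TriTE 3 (0.076). Fn1, fibronectin, was at 1143, 976 and 940.5 CPM in Lipo-BiTE and at 360.3, 547 and 392 CPM in Lipo-TriTE libraries, with PBS at 716 to 1042 CPM (-1.24, SE 0.20, edgeR adjusted p = 0.0067). Mmp14, a membrane-bound collagenase, was at 356, 457 and 458 CPM against 228, 248 and 218 CPM (-0.87, SE 0.16, edgeR adjusted p = 0.0088). Col4a1 and Col4a2, of basement membrane, fell by 1.28 and 1.39, and their calls were lost in 4 and 3 omissions, with edgeR adjusted p up to 0.066 (Col4a1 without Lipo-TriTE 3) and 0.06 (Col4a2 without Lipo-BiTE 2). Postn, a matrix protein of activated fibroblasts, went the other way, from 1.31 to 2.45 CPM to 6.07 to 11.1 CPM (2.27, SE 0.34, edgeR adjusted p = 0.0045), and PBS stood at 7.13 to 9.43 CPM. Col1a1 was at 23.6 to 29.4 CPM against 16.5 to 41.3 CPM and was not called (0.12, 95% interval -0.75 to 0.99).

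Of 20 genes of the TGF-beta pathway 4 fell and none rose; 1 fell without Lipo-BiTE 2 or Lipo-TriTE 2, and 2 without Lipo-BiTE 3 or Lipo-TriTE 3. Cyr61, a matricellular target of TGF-beta and of YAP, was at 60.6, 122 and 76.7 CPM in Lipo-BiTE and at 26.2, 32.7 and 29.9 CPM in Lipo-TriTE libraries (-1.54, SE 0.23, edgeR adjusted p = 0.0045), and it kept its call in all omissions. Tgfb1 itself fell by 1.19, and its call was lost without Lipo-BiTE 2 (edgeR adjusted p = 0.053), Lipo-TriTE 2 (0.057) or Lipo-TriTE 3 (0.053). Of 14 mesenchymal transition genes 4 fell, Snai1 (-1.48), Foxc2 (-1.96), Fn1 and Twist1 (-0.82); without Lipo-BiTE 2 the number was 2. Snai1, a repressor of epithelial genes, was at 31.5, 30.1 and 26.5 CPM against 12.9, 11.8 and 6.87 CPM. Foxc2 lost its call without Lipo-BiTE 2 (edgeR adjusted p = 0.058) and Twist1 in 5 omissions, with edgeR adjusted p up to 0.098 (without Lipo-BiTE 2). With the GC offset Foxc2 (edgeR adjusted p = 0.057) and Twist1 (0.29) were not called. Jup, plakoglobin of epithelial junctions, also fell (-1.14, SE 0.19, edgeR adjusted p = 0.0074), so genes of both epithelial and mesenchymal adhesion are among the falls.

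Some ERBB ligands and the receptor gene Erbb2 fell: 4 of 13 genes of the family were called lower, none higher, with 1 lower without Lipo-BiTE 2 and 2 without Lipo-TriTE 2. The family was mixed, as 4 of the 13 had a positive log2 fold change, up to 1.74. At an unadjusted p under 0.05, 2 were higher and 6 lower by edgeR, and without PBS 1 a call of 1 higher appeared. Tgfa, a ligand of the EGF receptor, was at 26.2, 40.8 and 42.0 CPM in Lipo-BiTE and at 12.6, 17.6 and 15.5 CPM in Lipo-TriTE libraries (-1.25, SE 0.21, edgeR adjusted p = 0.0074), against 38.3 to 46.5 CPM in PBS. Ereg, another ligand, fell by 1.16 and lost its call without Lipo-BiTE 2 (edgeR adjusted p = 0.066). Erbb2, the mouse HER2 gene (chr11:104040134-104071323, C57BL/6NJ), was at 17.1, 23.6 and 23.2 CPM in PBS, at 13.2, 22.3 and 21.4 CPM in Lipo-BiTE and at 9.32, 9.14 and 7.71 CPM in Lipo-TriTE libraries. Every Lipo-TriTE value lay below every other value. The fall of 1.12 on the log2 scale (SE 0.24, edgeR adjusted p = 0.018) was lost without Lipo-BiTE 2 (0.081), Lipo-BiTE 3 (0.057), Lipo-TriTE 2 (0.053) or Lipo-TriTE 3 (0.062). The labels do not give the species or sequence of the added HER2, so these counts need not include it.

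Part of the genes of glucose use and of the hypoxia response fell. Of 12 glycolysis genes 6 fell and all 12 had a negative log2 fold change (median -0.58). Of 13 hypoxia genes 6 fell (median -0.71), and edgeR called no member of either list higher. Against these falls, 1 hypoxia gene had a positive log2 fold change, of 1.75. Hypoxia genes gave 1 higher and 8 lower at an unadjusted p under 0.05, and 1 higher and 6 lower by DESeq2. Slc2a1, the glucose transporter GLUT1, was at 912, 831 and 513 CPM in Lipo-BiTE and at 266, 431 and 310 CPM in Lipo-TriTE libraries, and PBS, at 228 to 394 CPM, overlapped the latter (-1.16, SE 0.28, edgeR adjusted p = 0.027). Hk2, hexokinase 2, fell by 1.03 and Slc16a3, a lactate exporter, by 0.97. Without Lipo-BiTE 2 no glycolysis gene was called, with edgeR adjusted p = 0.094 for Slc2a1, 0.064 for Hk2 and 0.08 for Slc16a3, and with the GC offset 3 were; without Lipo-TriTE 1 the number was 2 and without Lipo-TriTE 3 it was 1. Slc2a1 and Slc16a3 also lost their calls without Lipo-TriTE 1 (0.075 and 0.066) or Lipo-TriTE 3 (0.09 and 0.075). P4ha2, a collagen prolyl hydroxylase induced by hypoxia, was at 49.0, 58.0 and 61.2 CPM against 22.7, 30.8 and 26.4 CPM (-1.08, SE 0.19, edgeR adjusted p = 0.0084); it was the hypoxia gene that kept its call in every omission, and 2 were called without Lipo-TriTE 1. Ndrg1 (-0.79), Egln3 (-1.06), P4ha1 (-0.71) and Mxi1 (-0.67) were the others called beside Slc2a1, and each lost its call without Lipo-BiTE 2 (edgeR adjusted p = 0.11, 0.057, 0.095 and 0.085).

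Heat shock and immediate early genes were high in Lipo-BiTE tumours and lower in Lipo-TriTE tumours. All 13 heat shock and immediate early genes had a negative log2 fold change (median -0.92), and 4 fell. Hspa1b, the inducible chaperone HSP70, was at 18.3, 30.6 and 31.2 CPM in PBS, at 917, 660 and 237 CPM in Lipo-BiTE and at 133, 168 and 138 CPM in Lipo-TriTE libraries (-2.05, SE 0.41, edgeR adjusted p = 0.014). Egr1, an immediate early transcription factor, was at 2343, 1552 and 556 CPM against 419, 482 and 496 CPM (-1.67), and Jun at 1817, 1139 and 597 CPM against 455, 427 and 411 CPM (-1.46). In these genes Lipo-BiTE 1 was the highest and Lipo-BiTE 3 the lowest of their group. With the GC offset the call of Egr1 was lost (edgeR adjusted p = 0.078). Without Lipo-BiTE 2 none of the 13 was called (Hspa1b edgeR adjusted p = 0.054, Egr1 0.079, Jun 0.063), and without Lipo-BiTE 3 the number was 9. Without Lipo-TriTE 1, 2 or 3 a single gene of the 13 was called. Among 16 endoplasmic reticulum stress genes edgeR called none (0 higher and 3 lower at an unadjusted p under 0.05), with a median of -0.21. Their summed level was 5350 to 6530 CPM in PBS, 5610 to 6430 CPM in Lipo-BiTE and 4830 to 5310 CPM in Lipo-TriTE libraries. Of 16 p53 target genes 5 fell and Trp53inp1 rose (1.38, lost without Lipo-BiTE 2, edgeR adjusted p = 0.059). The falls were 1 without Lipo-BiTE 2 or Lipo-TriTE 2, 2 without Lipo-TriTE 1 or 3, 3 without Lipo-BiTE 1, PBS 2 or PBS 3, and 2 with the GC offset. Tnfrsf10b, a death receptor, was at 27.1, 29.6 and 31.1 CPM against 13.2, 15.1 and 16.9 CPM (-0.96, SE 0.17, edgeR adjusted p = 0.0085) and kept its call in all omissions, while the call of Cdkn1a, the cell cycle inhibitor p21, was lost in 6, with edgeR adjusted p up to 0.11 (without Lipo-BiTE 2), and with the GC offset (0.091).

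Cell cycle genes gave no call between the agents. No gene of 23 cell cycle genes was called by edgeR (0 higher and 1 lower at an unadjusted p under 0.05, 0 by DESeq2), and the median was -0.07. Mki67, a proliferation marker, was at 164, 159 and 230 CPM in Lipo-BiTE and at 177, 180.2 and 153 CPM in Lipo-TriTE libraries (-0.12, 95% interval -0.47 to 0.24), against 195 to 220.5 CPM in PBS. Of 9 epithelial and urothelial genes edgeR called none (1 higher and 1 lower at an unadjusted p under 0.05, 1 higher by DESeq2). Of 11 keratin and junction genes 2 fell, among them Jup, and none rose; without any of 6 libraries, Lipo-BiTE 2 among them, 1 was called. Krt8 was at 266, 341 and 380 CPM against 159, 295 and 286 CPM (-0.42, 95% interval -0.91 to 0.07), and PBS was higher, at 453 to 479 CPM. Krt8 levels thus overlapped between the agents, whereas the CD3 sums did not.

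Markers of fat, skin, red blood cells and skeletal muscle, which can adhere to a tumour, were low in both groups. Lymph node tissue was not among these lists, and its part in the rises of B cell and naive T cell genes was not tested. Adipocyte, skin keratinocyte and erythroid genes, 3 tested of each, gave no call by edgeR or DESeq2 (at an unadjusted p under 0.05, 1 keratinocyte gene was higher and 1 erythroid gene lower), with summed levels of 17.7 to 39.6, 2.84 to 6.25 and 5.57 to 12 CPM in Lipo-BiTE and of 19.0 to 27.4, 4.56 to 5.58 and 3.01 to 5.83 CPM in Lipo-TriTE libraries. Adipoq and Acta1, which define fat and skeletal muscle, were at 0 to 0.381 CPM in the 6 libraries. Among 5 skeletal muscle genes Mylpf was called (1.35, edgeR adjusted p = 0.049) and lost its call in 8 of the 9 omissions, with edgeR adjusted p up to 0.13 (without Lipo-BiTE 3). Summed levels of the muscle genes were 23 to 28.1 CPM in Lipo-BiTE and 26.9 to 30.3 CPM in Lipo-TriTE libraries.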

How the data were processed

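Per the labels' protocols, tumours were frozen and homogenised, and libraries were made from fragmented mRNA with random primers; whether strand was kept is not stated, so overlapping and antisense genes cannot be told apart. The authors deposited 1 table of raw counts per gene for all 9 libraries. No source at hand names the aligner, the counter or the genome build; gene identifiers are those of the C57BL/6NJ annotation. The columns headed Untreated were taken as PBS, the only group left by the labels.

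Of 44806 entries, 3710 were unnamed loci (1135 tested), which took 1.17% to 2.14% of counts. A count of 3, taken as the floor, was 0.146 to 0.237 CPM. Genes passing filterByExpr were tested in edgeR 4.0.16 (R 4.3.3, limma 3.58.1) with TMM scaling, robust quasi-likelihood fits over all 9 libraries and Benjamini-Hochberg adjustment; DESeq2 1.42.0 was an alternative. On simulated counts for this comparison (16030 genes), 36% of 2-fold and 86% of 4-fold changes were recovered with 6 false calls. Far fewer genes were changed there than were called in the data, all with a mean over 1 CPM. These rates therefore need not hold for the data or for genes of lower level. Lists matched 3 genes by older symbols.

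Named genes were the 20 largest called rises and falls without overlap and at least 1 CPM, up to 5 list members with the smallest p, a fixed panel and the 10 smallest p; other called members were named after their values were seen. Some list members, and 1 of the 12 ratios, are not reported here by name. Members and lists were chosen with earlier results of these data known. Transcript GC content was read from GENCODE M21 (GRCm38) and promoters from RefSeq GRCm38.p6.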

Additional observations from a re-analysis of the deposited data

How the results depend on the processing

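The calls were most sensitive to single libraries: leaving out each in turn gave 276 to 1077 genes higher and 158 to 1120 lower, against 810 and 865, with the lowest counts without Lipo-BiTE 2. The next lowest for the rises were 476 without Lipo-BiTE 3 and 479 without Lipo-TriTE 3. Without a filter on low counts 1538 genes were higher and 1455 lower, DESeq2 called 1475 higher and 1204 lower, total-count scaling left 451 lower, and the fit on the 6 libraries alone left 510 lower. RLE, upper-quartile, stricter-filter and non-robust settings stayed within 1.5 times. The GC offset, chosen after seeing the data, gave 966 higher and 691 lower. Same-numbered Lipo-BiTE and Lipo-TriTE libraries deviated together with r of 0.0412, 0.0755 and 0.0333, too little to pair them, although each library correlated best with its own number; with the replicate block 649 genes were higher and 604 lower. Of 106 rises among the genes of the naming rule 68 held in every omission, and of 62 falls 13 did; with the GC offset 103 and 46 held. The ratio of Tcf7 to CD3 (0.09 on the log2 scale) turned to -0.19 with Trbc1 plus Trbc2 as divisor, and the omissions gave -0.05 (without Lipo-TriTE 1), -0.03 (without Lipo-BiTE 1) and up to 0.28 (without Lipo-TriTE 3). The causes were not tested. Depth limits genes near 0.146 to 0.237 CPM, where a count of 3 lies.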

Other observations

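Ribosomal and respiratory chain genes had mostly positive log2 fold changes from Lipo-BiTE to Lipo-TriTE, with few or no calls. Of 20 cytosolic ribosomal protein genes, Rps3 and Rpl8 rose, 19 had a positive log2 fold change and the median was 0.32. Rps3 was at 1160, 1084 and 1273 CPM in Lipo-BiTE and at 1660, 1579 and 2071 CPM in Lipo-TriTE libraries (0.59, SE 0.15, edgeR adjusted p = 0.032), and PBS, at 1289 to 1537 CPM, lay between. Neither call held in every omission of a library. Of 20 respiratory chain genes edgeR called none (3 higher and 0 lower at an unadjusted p under 0.05, 1 higher by DESeq2), and all 20 had a positive log2 fold change, with a median of 0.18; over the omissions the median ran from 0.11 to 0.26, and with total-count scaling it was 0.30.

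Fc receptor genes, which bind antibody on immune cells, rose in 7 of 13 cases with a median of 2.5, and in 3 of 13 without Lipo-BiTE 2; 4 of the 13 passed the filter on low counts only through the Lipo-TriTE libraries. Fcmr, the IgM receptor of B cells, was at 0.710, 1.81 and 0.291 CPM in Lipo-BiTE and at 110.0, 54.6 and 53.4 CPM in Lipo-TriTE libraries, a rise of 6.27 (SE 0.68, edgeR adjusted p = 0.0012) that held in all 9 omissions; the 77.3-fold rise was 143-fold without Lipo-BiTE 2. Atp1b1, a subunit of the sodium pump, was at 4.73, 5.57 and 5.24 CPM against 49.7, 32.4 and 36.3 CPM (2.93, SE 0.23, edgeR adjusted p = 0.00014), with PBS at 1.86 to 2.55 CPM.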
